A study of Mus musculus with 47 samples.

Results

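The genes described here are 10 genes known as markers of liver macrophages, most of which are silent in hepatocytes: Spi1, Csf1r, Ptprc, Itgam, Cd14, Marco, Cd68, Clec4f, Timd4 and Cd5l. They were chosen by name from textbook knowledge of Kupffer cells and other macrophages, with earlier results of these data known. All 10 were found among the 22225 protein-coding genes of the mm9 annotation, where Spi1 carries its older name Sfpi1. The authors mapped 3 histone marks, H3K27me3, H3K27ac and H3K4me1, by ChIP-seq in livers of male and female mice aged 7 weeks. Control mice were floxed (Ezh2 f/f), and E1/E2-KO mice were Ezh1-/-, EZH2f/f and AC+, the last being the Alb-Cre transgene, in which the albumin promoter drives Cre. The sample records give 4 livers for each mark, sex and genotype (3 for E1/E2-KO females and H3K4me1, so how many livers that list pools is uncertain), and all groups share the floxed Ezh2 allele. The genotype limits what can be read at these genes. E1/E2-KO mice lack Ezh1 in every cell, but Alb-Cre deletes Ezh2 in hepatocytes, so Kupffer cells keep Ezh2. Whole liver was used, and hepatocytes supply most of its chromatin.

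H3K27me3 is the trimethyl mark that polycomb repressive complex 2 places on histone H3 through Ezh1 or Ezh2, and it covers silent genes in broad regions. H3K27ac is found on active promoters and enhancers, and H3K4me1 on enhancers that are active or primed. Kupffer cells are the resident macrophages that line the liver sinusoids and clear particles, old blood cells and bacterial products from portal blood. Macrophage genes are turned on by the transcription factor PU.1, the product of Spi1, together with IRF, AP-1 and C/EBP factors. In liver chromatin a silent hepatocyte allele and an active macrophage allele of the same gene are mapped together, so H3K27me3 and activating marks at 1 place need not come from the same cell.

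The stretches below, 4 from promoters and 2 from peaks, are printed because they belong to the genes on which the values below turn. Marco, Clec4f and Cd5l lay inside H3K27me3 regions in all 4 lists with no H3K27ac or H3K4me1 peak at their starts, and Cd68 lay outside H3K27me3 regions in all 4 lists. The stretches hold no annotated exon, and those of Marco, Clec4f and Cd5l end at the outermost annotated start, whereas that of Cd68 ends at the RefSeq start, which lies upstream of the start in the annotation used for the spans. CpG dinucleotides are in capitals, and there is none in the stretches of Marco, Clec4f and Cd5l and 4 in that of Cd68. Sequences are from RefSeq (GRCm38.p6 table) and were placed by exact match in the mm9 genome, at chr1:122401662-122401851 (minus strand), chr6:83606182-83606360 (minus strand), chr3:87161553-87161802 (plus strand) and chr11:69479673-69479922 (minus strand).
Marco promoter: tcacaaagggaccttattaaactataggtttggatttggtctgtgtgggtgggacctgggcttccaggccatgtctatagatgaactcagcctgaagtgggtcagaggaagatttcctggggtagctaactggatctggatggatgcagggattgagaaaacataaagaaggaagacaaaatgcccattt
Clec4f promoter: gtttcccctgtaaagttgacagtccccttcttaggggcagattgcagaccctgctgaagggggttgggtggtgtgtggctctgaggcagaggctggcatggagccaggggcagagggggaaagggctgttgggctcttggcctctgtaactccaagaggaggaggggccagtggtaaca
Cd5l promoter: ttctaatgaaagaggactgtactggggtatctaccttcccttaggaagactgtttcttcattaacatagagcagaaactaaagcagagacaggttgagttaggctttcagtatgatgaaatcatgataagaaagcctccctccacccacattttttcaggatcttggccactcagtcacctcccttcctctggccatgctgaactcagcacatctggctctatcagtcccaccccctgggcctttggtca
Cd68 promoter: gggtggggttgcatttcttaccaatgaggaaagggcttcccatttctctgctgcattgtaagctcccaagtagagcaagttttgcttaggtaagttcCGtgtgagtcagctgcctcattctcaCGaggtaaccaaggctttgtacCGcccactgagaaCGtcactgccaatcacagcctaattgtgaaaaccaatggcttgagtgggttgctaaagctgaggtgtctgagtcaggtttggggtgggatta

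Spi1 and Itgam carried peaks away from their starts. The Spi1 stretch (mm9 chr2:90949836-90950135, plus strand) lies in an intron, at the center of a site with a peak in all 8 lists of activating marks; in the control female H3K4me1 list the site is split into 2 peaks, and part of the stretch lies between them. The Itgam stretch (mm9 chr7:135201276-135201575, plus strand) lies upstream of the gene, and is shared by 3 peaks, those of H3K27ac and H3K4me1 in E1/E2-KO males and of H3K4me1 in control females. Capitals here mark a match to the AP-1 motif TGANTCA, and the Itgam stretch holds no match to any motif searched.
Spi1 intronic peak: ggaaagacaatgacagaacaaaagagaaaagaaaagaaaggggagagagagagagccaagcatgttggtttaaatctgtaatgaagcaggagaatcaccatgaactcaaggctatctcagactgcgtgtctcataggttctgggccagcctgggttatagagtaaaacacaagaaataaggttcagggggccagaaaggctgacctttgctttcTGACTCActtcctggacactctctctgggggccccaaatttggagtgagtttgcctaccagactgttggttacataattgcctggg
Itgam upstream peak: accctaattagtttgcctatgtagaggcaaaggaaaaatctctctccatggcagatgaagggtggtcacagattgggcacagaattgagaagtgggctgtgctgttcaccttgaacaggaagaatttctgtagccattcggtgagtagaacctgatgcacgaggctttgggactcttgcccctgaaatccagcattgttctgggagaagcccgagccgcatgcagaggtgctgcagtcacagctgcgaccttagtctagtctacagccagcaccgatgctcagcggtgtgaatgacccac

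The authors pooled the reads of the livers of a group before they called regions and peaks, so each mark has 4 lists, 1 per sex and genotype, with positions and no heights. The values below therefore have no replicate error, differences between groups were not tested, and the depth is unknown. Signal outside the called regions and peaks is not recorded, so a place with none in a list may still carry the mark. Strength inside a region is not recorded either, so a place covered in both genotypes may carry less H3K27me3 in E1/E2-KO liver. The paper cites earlier work in which H3K27me3 was reduced in most E1/E2-KO hepatocytes. It adds that its own ChIP-seq may understate the loss at some sites. Lists also differed in length: the control male H3K27ac list held 29359 peaks and the other 3 held 49702 to 55930, H3K4me1 lists held 51417 to 69797 peaks, and H3K27me3 lists held 15603 to 19796 regions over 707 to 766 Mb. H3K27me3 coverage is the percent of a gene's bases inside regions. A change is called from 25 percentage points of coverage, or from 2 peaks among those that overlap the gene or the 10 kb on either side.

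Called H3K27me3 regions covered most of these genes in control liver and also in E1/E2-KO liver, which does not show that the amount of mark was kept. The median coverage of the 10 genes was 99.6% in control males, 99.3% in E1/E2-KO males, 93.0% in control females and 88.2% in E1/E2-KO females, beside a median of 0% over all protein-coding genes in every list. Coverage of at least 50% was found for 7, 7, 7 and 6 of the 10 genes in that order, or 60.0% to 70.0%, compared with 28.7% to 32.5% of all genes. Cd14, Marco, Clec4f and Cd5l (4 of 10 genes, or 40.0%) were covered in full in all 4 lists, compared with 12.3% of all genes. Such full coverage was not particular to them, since it was found for 5 of 10 stellate cell genes, 5 of 10 lymphocyte genes and 1 of 10 endothelial genes. In male liver, coverage of Ptprc and Timd4 was lower in E1/E2-KO by the called amount (2 of 10 genes, with 6.07% of all genes called lower) and no gene was called higher (9.86% of all genes). In female liver, coverage of Csf1r was lower (1 of 10 genes, with 7.57% of all genes called lower) and no gene was called higher (6.31%). No gene was called in both sexes, and at a threshold of 50 points the male calls at Ptprc and Timd4 ended. With the widest 50% of the regions of each list the male differences were -12.6 points at Timd4, which ended its call, -95.1 at Ptprc and -90.2 at Csf1r, which was then called lower in both sexes. This setting drops regions narrower than the median of their list, 31600 bp in E1/E2-KO males. That removes the E1/E2-KO male regions over Csf1r (27.2 kb) and Ptprc (13.6 to 30.4 kb), so the last 2 values reflect the cut in width. Of the genes that started from at least 25% coverage in the control list, 2 of 9 in males (22.2%) and 1 of 8 in females (12.5%) were lower, and the same shares over all genes were 17.7% and 22.2%, so the called losses at these genes were of the order seen genome-wide.

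**Figure D1:**
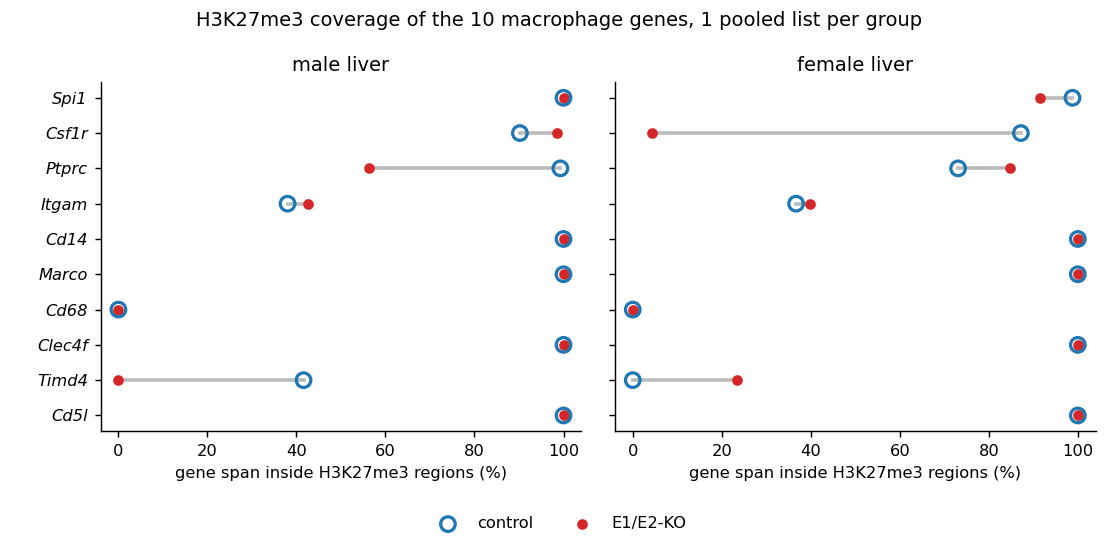
Percent of each gene span inside H3K27me3 regions (x axis) for the 10 genes (y axis), in male (left) and female liver (right); open blue circles are the control list and red dots the E1/E2-KO list, 1 pooled list each. Cd14, Marco, Clec4f and Cd5l sit at 100% and Cd68 at 0% in every list, and the long lines are Ptprc and Timd4 in males and Csf1r in females.

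Activating marks were sparse. H3K27ac peaks within 10 kb were found at 3, 5, 5 and 6 of the 10 genes in control males, E1/E2-KO males, control females and E1/E2-KO females, or 30.0% to 60.0%, whereas 60.5% to 69.0% of all genes had such a peak. H3K4me1 peaks were found at 4, 6, 5 and 5 of the 10 genes, or 40.0% to 60.0%, and at 71.0% to 75.4% of all genes. In all, the 8 lists held 101 peaks at 8 of the 10 genes, of which 33 lay within 1 kb of the start of another gene and 57 overlapped an H3K27me3 region of the same group. A site found in several lists is counted once per list. Of the 33, 21 were at Cd68 and 10 at Cd14, and of the 57, 31 were at Spi1 and 11 at Cd14. The same shares over all peaks were not computed, so neither count can be called high or low. Of the 101 peaks, 32 were at Spi1, 26 at Cd68 and 19 at Cd14. Marco and Timd4 had no peak in any list, 2 of 10 genes, where 20.7% of all genes had none. Peak numbers are counted over windows that differ with gene length, and are compared here between lists of a gene and not between genes.

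**Figure D2:**
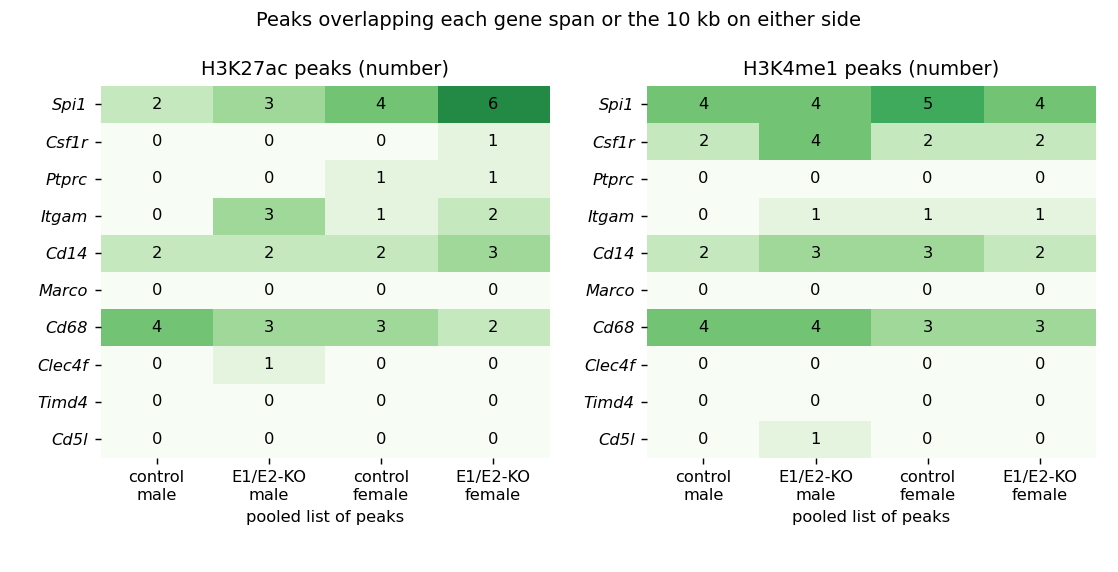
Number of H3K27ac peaks (left) and H3K4me1 peaks (right) overlapping each gene or the 10 kb on either side, with genes in rows and the 4 pooled lists of the mark in columns; darker green is a larger number. Spi1, Cd14 and Cd68 have peaks in all 8 lists, and Marco and Timd4 in none.

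Few of these changes in peak number reached 2 peaks. For H3K27ac, Itgam was called higher in E1/E2-KO males (1 of 10 genes, with 24.9% of all genes called higher in the longer E1/E2-KO male list) and Spi1 in E1/E2-KO females (1 of 10 genes, 7.55% of all genes). No gene was called lower for H3K27ac, where 0.481% of all genes were called lower in males and 6.93% in females. For H3K4me1, Csf1r was called higher in E1/E2-KO males (1 of 10 genes, 9.55% of all genes), and no gene was called higher in female liver (6.34% of all genes). No gene was called lower for H3K4me1 in males, where 13.4% of all genes were, or in females, where 13.5% were. These shares do not set the 10 genes apart from the background. The calls at Itgam and Spi1 ended when the 29359 widest peaks of each H3K27ac list were used, and the call at Csf1r ended when H3K4me1 peaks within 1 kb were merged.

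Spi1 encodes PU.1, the transcription factor that macrophages and other myeloid cells depend on. It lies at chr2:90922547-90955913 (plus strand), and the annotation gives it 3 transcript starts, at the outer end of the span and 13.7 and 14.4 kb inside it. H3K27me3 covered 100% of the gene in control males, 100% in E1/E2-KO males, 98.8% in control females and 91.6% in E1/E2-KO females. Coverage by called regions was thus near full in all 4 lists. The uncovered part in E1/E2-KO females was a gap between a region of 37.6 kb and one of 20.8 kb at the end of the gene. Spi1 also carried activating peaks in every list. H3K27ac peaks numbered 2 in control males, 3 in E1/E2-KO males, 4 in control females and 6 in E1/E2-KO females, and H3K4me1 peaks 4, 4, 5 and 4 in the same order. Peaks were found in all 8 lists at 2 places, the intronic site printed above, 27.2 to 27.9 kb from the outer start (12.8 to 13.5 kb from the nearest transcript start), and a site in an exon at the end of the gene, 33.1 to 33.2 kb from the outer start. The other H3K27ac peaks differed between lists. In both sexes of E1/E2-KO mice a peak lay 14.7 kb from the outer start, 276 and 277 bp downstream of the innermost transcript start, and neither control list had one there. The control female list had peaks of its own 0.316 kb before the outer start and 13.9 kb inside the gene, 216 bp downstream of the middle transcript start. E1/E2-KO females added peaks 0.379, 0.998 and 15.8 kb from the outer start. Control males, whose list is the shortest, had H3K27ac only at the pair of shared sites. In all, 31 of the 32 peaks at Spi1 overlapped an H3K27me3 region of the same group. The E1/E2-KO female H3K27ac peak at the end of the gene did so only in part. Mybpc3, a gene of heart muscle sarcomeres whose start lies 35754 bp from that of Spi1, was 98.5% to 100% covered in the 4 lists, and H3K4me1 peaks 37.1 to 37.3 kb from the outer Spi1 start lay in it.

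Csf1r encodes the receptor for colony-stimulating factor 1, on which macrophages depend for survival. It lies at chr18:61265226-61291803 (plus strand), and H3K27me3 covered 90.2% of it in control males, 98.6% in E1/E2-KO males, 87.2% in control females and 4.42% in E1/E2-KO females. The E1/E2-KO female list thus stands apart from the other 3, a difference of -82.8 percentage points from control females, while in males coverage was 8.38 points higher in E1/E2-KO. With the widest 50% of the regions of each list, the difference in males was -90.2 points and that in females stayed at -82.8. The male value arises because the E1/E2-KO male region over the gene is narrower than the median of its list and is left out. The regions themselves were cut in different places. Csf1r lay at the end of a region of 280 kb in control males and 166 kb in control females; in E1/E2-KO females a region of 257 kb began at the same window as in control males but stopped 1175 bp inside Csf1r; and in E1/E2-KO males a separate region of 27.2 kb covered the gene but not its outer start. Pdgfrb, the platelet-derived growth factor receptor gene that shares the long region and is named here after its values were seen, was 100% covered in all 4 lists. H3K4me1 peaks at Csf1r numbered 2 in control males, 4 in E1/E2-KO males, 2 in control females and 2 in E1/E2-KO females. An exonic site 4.93 to 4.97 kb from the start had H3K4me1 in all lists but that of E1/E2-KO females. An intronic site 3.19 to 3.28 kb from the start had H3K4me1 in both E1/E2-KO lists and H3K27ac in the E1/E2-KO female list, and neither control list of these marks had a peak there. A further H3K4me1 site 21.8 kb from the start was likewise found in both E1/E2-KO lists and in neither control list. The H3K27ac peak in E1/E2-KO females was the only one at Csf1r in the 4 H3K27ac lists, and it lay outside the H3K27me3 region of that group. Csf1r is known to have an intronic enhancer that macrophages use, but its position is not in the files used and the peaks were not matched to it.

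Ptprc encodes CD45, a membrane phosphatase found on all white blood cells. It is the longest of the genes, at chr1:139959438-140071882 (minus strand), and H3K27me3 covered 99.3% of it in control males, 56.4% in E1/E2-KO males, 73.1% in control females and 84.8% in E1/E2-KO females. Coverage was therefore lower by 42.9 points in male E1/E2-KO liver (a difference of -42.9) and higher by 11.7 points in female knockouts. With the widest 50% of the regions of each list the differences were -95.1 and 22.8 points. That setting leaves out every E1/E2-KO male region at Ptprc, each being narrower than the median of its list. Among control regions it leaves out those of 29.2 kb in males and 12.4 kb in females. With the 15603 widest regions of each list the differences were -42.9 and 22.8 points. The control male list had 2 regions that together left only a short gap, whereas the E1/E2-KO male list had 3 regions of 13.6 to 30.4 kb, the control female list 2 of 12.4 and 72.0 kb and the E1/E2-KO female list 2 of 44.0 and 56.0 kb. Only in control males did a region reach over the transcription start. H3K27ac at Ptprc was limited to 1 peak in control females, 0.404 kb from the start, and 1 peak in E1/E2-KO females, 44.3 kb from the start in an intron. Both male lists had none, and H3K4me1 peaks were absent from all 4 lists. The 3′ end of the gene lay inside a region in all 4 lists, and the lists differed in its middle and 5′ parts.

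Itgam encodes CD11b, the integrin chain of complement receptor 3 on monocytes, neutrophils and macrophages. It lies at chr7:135206154-135271674 (plus strand), and H3K27me3 covered 38.0% of it in control males, 42.6% in E1/E2-KO males, 36.7% in control females and 39.8% in E1/E2-KO females. The same inner region of 23.2 to 24.8 kb supplied nearly all of this in each list, and a second region of 25.2 to 27.6 kb began at the end of the gene and covered the start of Itgax, a neighbouring integrin gene that was 100% covered in all 4 lists. A region of 19.6 kb over the start of Itgam was found in E1/E2-KO males and in no other list. H3K27ac peaks numbered 0 in control males, 3 in E1/E2-KO males, 1 in control females and 2 in E1/E2-KO females, and H3K4me1 peaks 0, 1, 1 and 1. All 9 lay upstream of the gene, 4.69 to 8.93 kb before the start, where the stretch printed above is placed. All 4 peaks of E1/E2-KO males lay inside the H3K27me3 region found over the start in that group, and none of the 5 female peaks lay in a region.

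**Figure D3:**
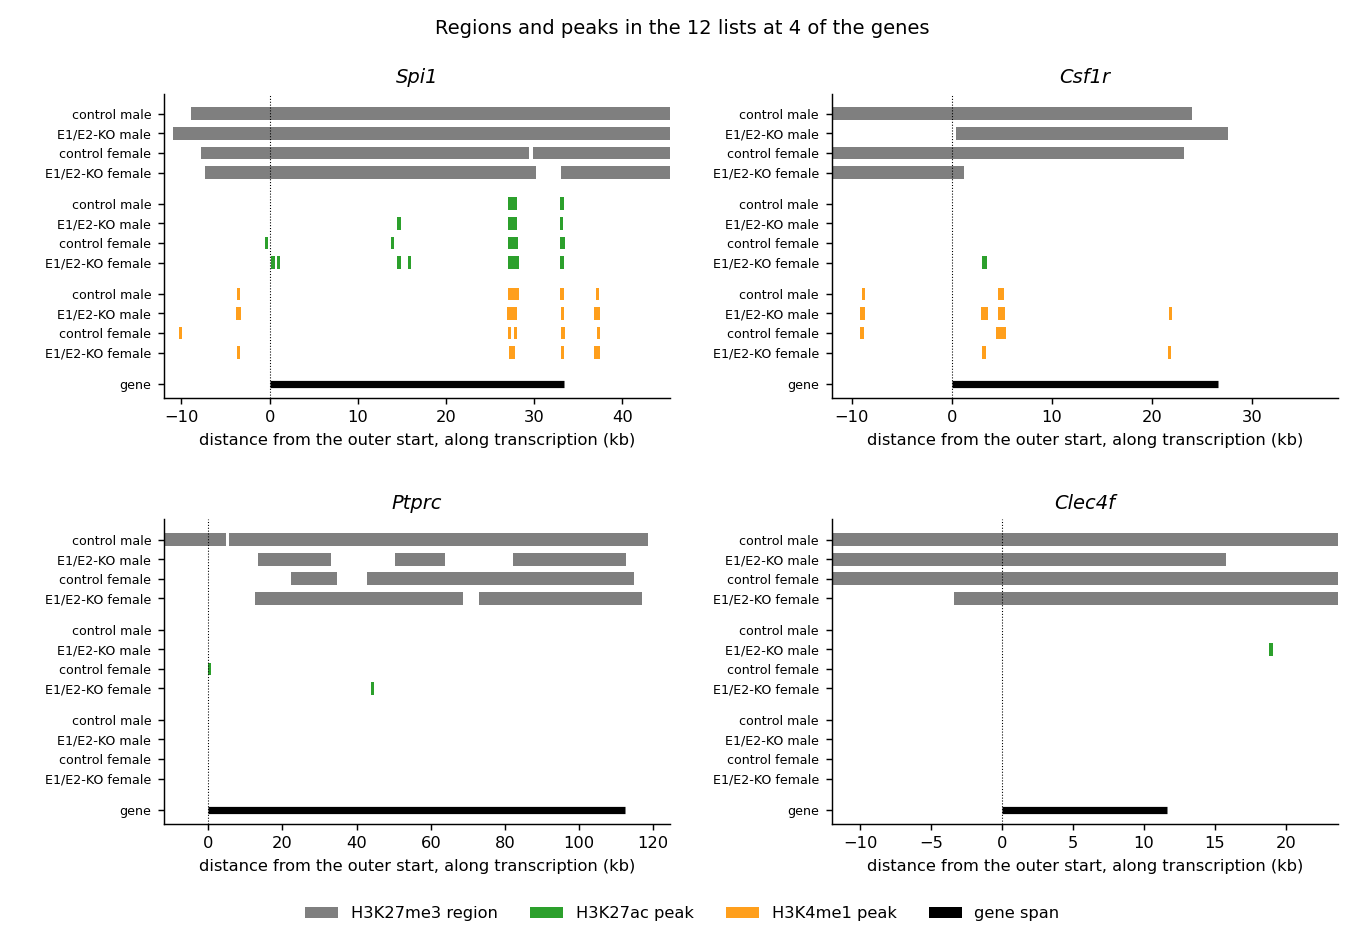
Position of H3K27me3 regions (gray), H3K27ac peaks (green) and H3K4me1 peaks (orange) in the 12 pooled lists at Spi1, Csf1r, Ptprc and Clec4f, by distance in kb from the outer start along the direction of transcription (x axis; dotted line at 0); the black bar is the gene span, regions are cut off at the plot edges, and narrow peaks are drawn at a minimum width. Spi1 shows peaks inside nearly full H3K27me3 coverage, Csf1r the short stretch of coverage in E1/E2-KO females, Ptprc the broken regions, and Clec4f full coverage with 1 distant peak.

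Cd14 encodes the co-receptor through which macrophages sense bacterial lipopolysaccharide, and hepatocytes can make it too. This short gene, of 1663 bp at chr18:36884728-36886390 (minus strand), was 100% covered by H3K27me3 in all 4 lists, inside regions of 21.2 kb in control males, 16.8 kb in E1/E2-KO males, 17.6 kb in control females and 17.2 kb in E1/E2-KO females. H3K27ac peaks numbered 2, 2, 2 and 3 in that order and H3K4me1 peaks 2, 3, 3 and 2. A peak over the gene itself was found in all 8 activating lists, always inside the H3K27me3 region of its group, with H3K27ac peaks of 968, 1284, 1131 and 1141 bp. Cd14 and Spi1 were thus the 2 genes at which all 3 marks overlapped in both sexes and genotypes. The remaining peaks, 7.90 to 9.14 kb before the start, lay near the start of Tmco6, a neighbouring gene whose own coverage was 17.5% in control males and 0% in the other 3 lists.

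Marco encodes a scavenger receptor that binds bacteria. It lies at chr1:122371115-122401661 (minus strand) and was 100% covered in all 4 lists, within regions of 116 kb in control males, 184 kb in E1/E2-KO males, 116 kb in control females and 144 kb in E1/E2-KO females. The E1/E2-KO regions were the longer ones in both sexes, and no activating peak was found within 10 kb in any of the 8 lists.

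Cd68 encodes a glycoprotein of macrophage lysosomes. It is the exception among the 10 genes, at chr11:69477715-69479655 (minus strand), with 0% coverage in all 4 lists and activating peaks nearby in every list. H3K27ac peaks numbered 4 in control males, 3 in E1/E2-KO males, 3 in control females and 2 in E1/E2-KO females, and H3K4me1 peaks 4, 4, 3 and 3. No peak overlapped Cd68 itself, and 21 of the 26 lay within 1 kb of the start of another gene. They fell on 2 sides, 2.72 to 4.54 kb downstream of the Cd68 start, around the start of Mpdu1, a gene of protein glycosylation, and 3.96 to 6.91 kb upstream, at Eif4a1, which encodes a translation initiation factor. Both neighbours are broadly expressed genes and were at 0% H3K27me3 coverage in all 4 lists. One more peak, of H3K27ac in E1/E2-KO males, lay 11.4 kb away by the start of Sox15, which was also at 0% in all 4 lists. With the peaks close to other genes' starts left out, an alternative added after the data were seen, the called numbers of members for H3K27ac and H3K4me1 did not change.

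Clec4f, Timd4 and Cd5l are the markers closest to Kupffer cells themselves. Clec4f encodes a C-type lectin that in mouse liver is restricted to Kupffer cells. It lies at chr6:83594536-83606181 (minus strand) and was 100% covered in all 4 lists, in regions of 199 kb in control males, 154 kb in E1/E2-KO males, 195 kb in control females and 55.2 kb in E1/E2-KO females. The region was thus shortest in E1/E2-KO females without uncovering the gene. The 8 activating lists held 1 peak near Clec4f, of H3K27ac in E1/E2-KO males, 19.0 kb from the start beyond the end of the gene. Cd5l, at chr3:87161803-87174996 (plus strand), encodes a secreted protein that macrophages release to curb lipid synthesis and apoptosis. It too was 100% covered in all 4 lists, in regions of 62.0, 64.4, 39.6 and 51.2 kb in control males, E1/E2-KO males, control females and E1/E2-KO females. Its 1 peak, of H3K4me1 in E1/E2-KO males, lay at the start of Fcrl1, a B cell gene that was itself 100% covered in all 4 lists.

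Timd4 encodes a receptor for phosphatidylserine with which resident macrophages take up dying cells. It lies at chr11:46624302-46657834 (plus strand), and coverage was 41.6% in control males, 0% in E1/E2-KO males, 0% in control females and 23.4% in E1/E2-KO females. The direction was opposite in the sexes, with differences of -41.6 and 23.4 points. The control male list had a region of 24.4 kb over the start and a second of 37.2 kb over the end of the gene, and E1/E2-KO females had only a region of 39.2 kb over the end. No activating peak was found within 10 kb of Timd4 in any list.

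Clec4f, Timd4 and Cd5l thus had 2 activating peaks between them in the 8 lists, neither of them at their starts. At the outer start of the 10 genes, within 1 kb, H3K27ac was found at 1 gene in control males, 1 in E1/E2-KO males, 3 in control females and 2 in E1/E2-KO females, and H3K4me1 at 1 gene in each list. Cd14 accounted for the 1 gene in each, with Spi1 added in both female H3K27ac lists and Ptprc in control females. For comparison, 44.9% to 51.9% of all genes had H3K27ac at their start and 36.2% to 47.1% had H3K4me1. Among 10 hepatocyte genes, the marker check of the tissue, 5, 8, 8 and 9 had H3K27ac at the start in the same order, and all 10 had an H3K27ac peak within 10 kb in each of the 4 lists. H3K4me1 was at the start of 5, 4, 2 and 2 of the hepatocyte genes, and within 10 kb of 10, 8, 8 and 7. A lower number of macrophages and less mark per macrophage cannot be told apart in whole liver.

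Other genes of the same cells were read in the same lists. Of 23 other macrophage genes, 13, 11, 13 and 9 were at least 50% covered in control males, E1/E2-KO males, control females and E1/E2-KO females, and 6 were covered in full in all 4 lists. Coverage was lower by at least 25 points at 3 of them in males and 5 in females. Of those with at least 25% coverage in the control list these are 23.1% and 38.5%, beside 17.7% and 22.2% over all genes. Aif1, a macrophage actin-binding protein, was covered 100%, 0%, 100% and 0% in that order. Tyrobp, the adaptor of activating myeloid receptors, was at 100% in the first 3 lists and 0% in E1/E2-KO females. Irf8, a transcription factor of the monocyte line, was covered 54.8%, 8.82%, 66.6% and 0%, and Cd163, the hemoglobin scavenger receptor, 96.3%, 67.0%, 85.5% and 54.1%. Ccr2, the chemokine receptor of monocytes, was at 100% in both male lists, 76.8% in control females and 0% in E1/E2-KO females.

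Markers of the other cell types of liver were read in the same way, since they share the whole-liver chromatin. Over all genes, 6.07% were called lower and 9.86% higher in males, and 7.57% and 6.31% in females. Differences between the gene lists were not tested. Coverage was lower at 6 of 10 endothelial genes in each sex, beside 2 of the 10 macrophage genes in males and 1 in females. Endothelial genes lower in both sexes included Pecam1, an adhesion molecule of endothelial junctions (100%, 0%, 87.6% and 0% in the order above), and Stab2, a hyaluronan receptor of sinusoids (87.3%, 0%, 64.2% and 0%). Tie1, an endothelial receptor kinase, was the exception, higher in males (0% to 83.8%) and lower in females (66.8% to 28.6%). For endothelial genes 18.9% of the bases covered in control males were still covered in E1/E2-KO males and 17.3% in females, compared with 76.2% and 86.7% for the 10 macrophage genes and 76.2% and 77.2% for all genes. The same shares were 87.1% and 70.4% for the other macrophage genes, 82.1% and 64.2% for stellate cell genes, and 97.9% and 88.1% for lymphocyte genes. Stellate cell genes were lower at 2 of 10 in males and 4 of 10 in females, with Acta2, the smooth muscle actin of activated stellate cells, at 100%, 49.3%, 100% and 26.9%. Lymphocyte genes were lower at 0 of 10 in males and 1 of 10 in females (Lck, a kinase of T cell receptor signalling, 74.7% to 0%) and higher at 1 in males (Cd4, the co-receptor of helper T cells, 49.7% to 100%). Hepatocyte genes went the other way, with higher coverage at 5 of 10 in males and 4 of 10 in females, such as Fgb, a fibrinogen chain, at 0% in both control lists and 100% in both E1/E2-KO lists. The 9 silent developmental genes that could be matched, of 10 listed, were covered at 50% or more in all 4 lists. What part these other cell types have in the values at the 10 macrophage genes was not tested.

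**Figure D4:**
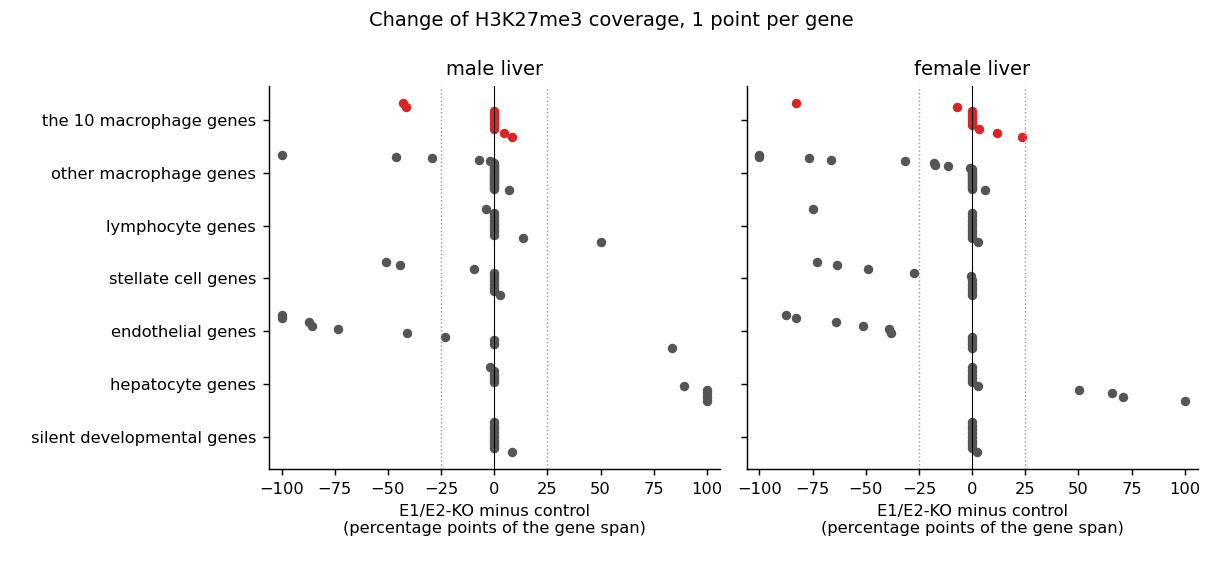
Difference in H3K27me3 coverage, E1/E2-KO minus control, in percentage points of the gene span (x axis) for each gene of 7 lists (y axis), in male (left) and female liver (right); 1 point is 1 gene, red points are the 10 macrophage genes and dotted lines mark 25 points either way. Endothelial genes spread to the left and hepatocyte genes to the right, and most macrophage genes lie at or near 0.

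The starts of these genes share a low CpG content, which the choice of genes did not use. CpG-rich promoters are the usual targets of polycomb repressive complex 2 in other cells. Over 500 bp on either side of the start, the ratio of observed to expected CpG was 0.0569 for Cd5l, 0.101 for Clec4f, 0.105 for Marco, 0.135 for Timd4, 0.163 for Csf1r, 0.176 for Spi1, 0.188 for Cd68, 0.219 for Itgam, 0.323 for Ptprc and 0.395 for Cd14. The median of the 10 genes was 0.169, compared with 0.550 over all genes, 0.196 for the other macrophage genes and 0.689 for the silent developmental genes. The lists of other liver cells also lay below the median of all genes, at 0.272 for hepatocyte, 0.273 for lymphocyte, 0.305 for endothelial and 0.481 for stellate cell genes. All 10 were below 0.6, as were 54.3% of all genes. Cd5l, Clec4f and Marco, with the lowest ratios, and Cd14, with the highest, were covered in full in all 4 lists, and Cd68 lay between them at 0% in all 4 lists.

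**Figure D5:**
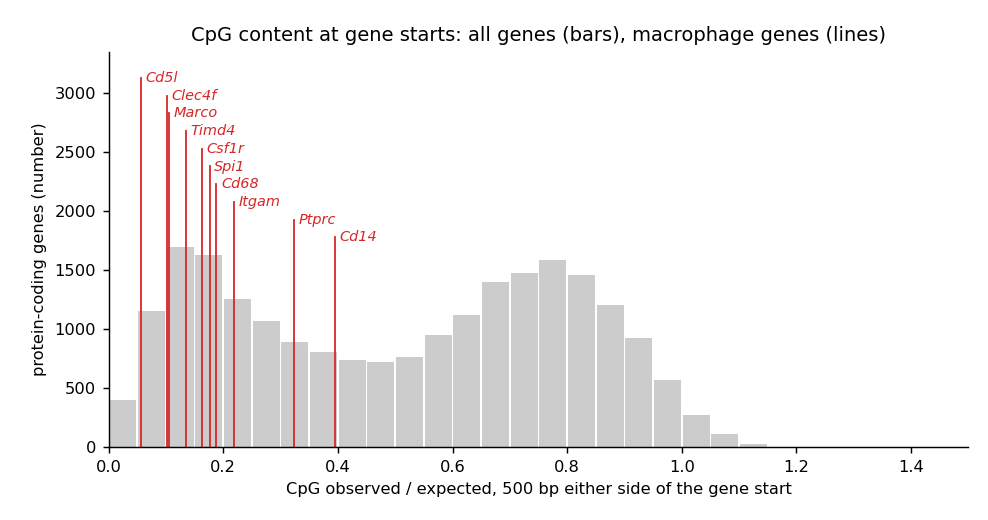
Ratio of observed to expected CpG in the 500 bp on either side of the gene start (x axis) against the number of protein-coding genes (y axis, gray bars, 22225 genes); each red line is 1 of the 10 macrophage genes, and the height of a line has no meaning. All 10 lines fall in the CpG-poor part of the distribution, from 0.0569 for Cd5l to 0.395 for Cd14.

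Motifs of the factors that drive macrophage genes were looked for at these starts. RefSeq promoters, from 250 bases before to 50 after a start, were given for 7 of the 10 genes, that is for all but Spi1, Csf1r and Cd14. They were searched on both strands for GAGGAAGT (PU.1), for GAAA followed after 2 bases by GAAA again (IRF), for TGANTCA (AP-1) and for TTGCNNAA (C/EBP), and no match overlapped one to another motif. No promoter of the 7 genes matched the PU.1 or the IRF motif, which 3.20% and 3.44% of all 32851 promoters do. Cd68 was the 1 gene with a match to the others, with TGAGTCA at 149 and 24 bases and TTGCTAAA at 43 bases before the RefSeq start; AP-1 matches are in 7.81% and C/EBP matches in 10.8% of all promoters. Absence of these letters says nothing of binding by the factors.

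The 5 genes outside the lists used here whose 12 values came nearest to the median of the 10 genes were Sv2c, Efcab6, Gsg1l, Ephb1 and Col5a1. Likeness was the root mean square difference over the 12 lists, with coverage as a fraction and activating peaks as the percent of the window inside peaks in units of its SD over all genes. It was 0.0535 for Sv2c and 0.0584 for Col5a1, and 163 genes lay within 0.1. Sv2c was covered 91.7%, 92.3%, 91.5% and 83.7% in control males, E1/E2-KO males, control females and E1/E2-KO females. Among the 10 genes themselves the difference from their median ran from 0.0837 for Cd5l to 2.21 for Cd14 and 2.50 for Cd68.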

How the data were processed

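Histone marks were measured by ChIP-seq in livers of floxed control and E1/E2-KO mice. Per the labels and the study's methods, the authors pooled the paired-end reads across the livers of each group and aligned them with Bowtie2 (version 2.3.2). The methods describe 4 livers in every group, whereas the sample records used here hold 3 for H3K4me1 in E1/E2-KO females. They used SICER (version 1.1) to find broad H3K27me3 regions and MACS2 (version 2.1.1) at its defaults for the other marks. The 12 deposited lists hold chromosome, start and end in mm9, with no score, count or p-value. Start positions were counted from 0 and are printed from 1, and 1 base was added to SICER ends. All intervals fit the chromosomes of NCBIM37 (mm9), whose GENCODE annotation (release M1) gave gene spans.

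Coverage, peaks within 10 kb and overlaps of at least 1 bp were computed in Python 3.11.15 and NumPy 2.4.6, checked against bedtools 2.31.1 and tested on simulated data. No test between groups was made, since each group has 1 list. Of the list of other macrophage genes, 1 is not reported here and is left out of its counts and plot, so no count of higher genes is given for that list. The members, gene lists and alternatives were chosen with earlier results of these data known. Named genes are the members, genes of the marker lists whose coverage changed by 25 points in either sex, neighbours whose start lies within 10 kb of a member, and the 5 genes nearest the median profile, except Pdgfrb. Alternatives were other spans, windows, thresholds and subsets of the widest regions or peaks.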

Additional observations from a re-analysis of the deposited data

Results flagged for a closer look

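These results had opposite directions in the sexes, each from 1 pooled list per group, so the difference between sexes was not tested. H3K27me3 coverage of Csf1r differed between E1/E2-KO and control by 8.38 percentage points in males and -82.8 in females, but with the widest 50% of the regions the male value was -90.2 and the directions were no longer opposite. That setting leaves out the narrow E1/E2-KO male region that covers Csf1r, so its male value reflects the cut in width. The E1/E2-KO male regions at Ptprc are left out in the same way. For Ptprc the differences were -42.9 points in males and 11.7 in females, or -95.1 and 22.8 with the widest 50% of the regions. For Timd4 they were -41.6 points in males and 23.4 in females. The widest 50% gave -12.6 and 23.4 for Timd4, which ended the male call. Spans extended by 3 kb gave -50.4 and 27.4, which added a female call. The number of H3K4me1 peaks at Cd14 differed by 1 in males and -1 in females. This last pair stays under the 2 peaks that are called a change. The smaller H3K27me3 differences first given for Csf1r, Ptprc and Timd4 likewise stay under 25 points.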

How the results depend on the processing

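Because the lists are pooled and hold no depth or peak height, no liver could be left out, and how far depth sets the numbers is unknown. No paired analysis was possible because each group has 1 pooled list and its columns carry no replicate. Counts of called members that moved were these. For H3K27me3, a threshold of 50 points left 0 genes lower in males instead of 2, and spans extended by 3 kb gave 1 gene higher in females (Timd4, 27.4 points) instead of 0. For H3K27ac in males, the 1 gene higher (Itgam) became 0 within the gene span, with the widest 50% of the peaks and with the 29359 widest peaks of every list ("equal numbers"), and 4 within 50 kb; equal numbers also gave 1 gene lower (Cd68) instead of 0. For H3K27ac in females, the 1 gene higher (Spi1) became 0 with peaks within 1 kb merged, with the widest 50% and with equal numbers. Within 50 kb the call at Spi1 ended too (a difference of 1 peak), while 3 other genes (Csf1r, Itgam and Cd68) were higher and 1 (Ptprc) was lower instead of 0. For H3K4me1 in males, the 1 gene higher (Csf1r) became 0 with merged peaks, 2 with the widest 50% and 3 within 50 kb, where 2 genes were lower instead of 0. For H3K4me1 in females, 3 genes were lower within 50 kb and 1 was higher with the widest 50%, instead of 0 and 0. With the widest 50% of regions 2 members were still lower in E1/E2-KO males, but Csf1r (-90.2 points) took the place of Timd4 (-12.6, no longer called), and Ptprc moved to -95.1. The separate E1/E2-KO male region at Csf1r is narrower than that list's median of 31600 bp, and so are the E1/E2-KO male regions at Ptprc. At Timd4 the control male region over the start, of 24.4 kb, is below its list's median of 30400 bp. At Ptprc the control female region of 12.4 kb is below its list's median of 23600 bp. In females the Ptprc difference was 22.8 points, instead of 11.7, with the widest 50% and with equal numbers of the widest regions, and was still not called. The cause of the moves not tied here to region width was not tested. Leaving out peaks near other genes' starts, chosen after seeing the data, moved no count.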
